A study of Homo sapiens with 8 samples.

Results

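The transforming growth factor beta (TGF-beta) pathway was followed in SUIT2, a human pancreatic ductal adenocarcinoma (PDA) cell line, through 9 genes out of the 25702 listed in each library. The genes were chosen by symbol for their roles: the ligands *TGFB1*, *TGFB2* and *INHBA*, the receptors *TGFBR1*, *TGFBR2* and *TGFBR3*, the inhibitors *SMAD7* and *BAMBI*, and the target *TGFBI*. All 9 were found by their NCBI gene number, and 8 of them passed the filter on low counts. RNA-seq was available for 8 libraries of cells carrying shRNA: 4 labelled scramble shRNA (shScr), 2 labelled *EN1* construct 1 (shEN1 #1) and 2 labelled *EN1* construct 2 (shEN1 #2). The label shEN1 without a number stands for both constructs pooled, 4 libraries. EN1 is a homeobox transcription factor, and the comparison asks which genes change when it is depleted. The labels give the genotype of every library as NA and give neither a time after infection nor a batch. The study's methods describe lentiviral infection followed by drug selection or cell sorting for cells grown in 2D, and medium with serum for SUIT2, and do not name a clone for this line. The libraries held between 33423590 and 37810604 counts, a ratio of 1.13.

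TGF-beta ligands are secreted in a latent form and, once released, bring the receptor kinases TGFBR2 and TGFBR1 together on the cell surface. The activated TGFBR1 phosphorylates SMAD2 and SMAD3, which join SMAD4 and enter the nucleus to change transcription, and among the genes they induce is the inhibitor *SMAD7*, which closes a feedback loop. In pancreatic epithelium the pathway restrains growth, many PDA tumors lose SMAD4 or a receptor, and in tumor cells that keep signaling it can drive epithelial-mesenchymal transition.

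The libraries did not follow their labels at the targeted gene. Counts of *EN1* were 136, 167, 172 and 94 for shScr replicates 1 to 4, 206 and 184 for shEN1 #1, and 53 and 218 for shEN1 #2. Its level was 4.01 ± 1.06 CPM (read counts relative to the library size after TMM scaling; SD, n = 4) under the label shScr and 4.81 ± 2.37 CPM (SD, n = 4) under the label shEN1, so every direction given here is a direction between labels. The log2 fold change of *EN1* (shEN1 over shScr) was 0.26 (standard error 0.43; edgeR, unadjusted p = 0.561). On the first principal component of log2 CPM, with 44.4% of the variance, shScr replicate 4 (59.2) and shEN1 #2 replicate 1 (62.1) lay far from the remaining 6 libraries (-27.6 to -9.15). These 2 libraries carry different labels, and the fold changes, the spread within labels and the order of the members are given with and without them. *EN1* was lowest in these 2 libraries. In the remaining 6, chosen after the data were seen, its counts were 136 to 172 under shScr and 184 to 218 under shEN1. There the labels did not overlap, in counts or in CPM, and the higher level was under shEN1, the label of depletion. No 2 of the 8 libraries were identical, and the closest pair differed by a chi-square of 10.6 per gene, where sampling noise alone gives about 1.

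The label of SUIT2 as epithelial was checked against marker genes. All 6 epithelial markers were detected in every library, with a summed level of 11700 to 15910 CPM under shScr and 11440 to 18550 CPM under shEN1. Fibroblast markers summed to 1.27 to 4.22 CPM under shScr and 1.17 to 2.75 CPM under shEN1, with *COL1A2*, *COL3A1*, *DCN* and *LUM* at 0 counts throughout. The 4 immune markers summed to 8.38 to 28.1 CPM under shScr and 7.80 to 34.9 CPM under shEN1, nearly all of it *CD68*, with *ITGAM* at 0 to 12 counts and *PTPRC* and *CD3E*, which mark leukocytes and T cells, at 0 counts throughout. The 4 endothelial markers summed to 0.316 to 0.603 CPM under shScr and 0.364 to 0.676 CPM under shEN1, from *VWF* (0 to 16 counts) and *PECAM1* (0 to 20 counts), with *CDH5* and *KDR* at 0 counts throughout.

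The promoters of the receptor *TGFBR2* and the target *TGFBI* are shown because these members varied most over the 8 libraries. The receptor was highest and the target lowest in the 2 libraries that lay far from the others. All 9 members had an entry in the RefSeq table of promoters (GRCh38.p14), with 19 entries in all because *TGFBR1*, *TGFBR2* and *SMAD7* have several start sites. The sequences are the 250 bases before the first listed start on the plus strand of chr3:30606106-30606355 for *TGFBR2* and of chr5:136028738-136028987 for *TGFBI*. Capitals mark GGGCGG, the GC box bound by Sp1, on either strand.
TGFBR2: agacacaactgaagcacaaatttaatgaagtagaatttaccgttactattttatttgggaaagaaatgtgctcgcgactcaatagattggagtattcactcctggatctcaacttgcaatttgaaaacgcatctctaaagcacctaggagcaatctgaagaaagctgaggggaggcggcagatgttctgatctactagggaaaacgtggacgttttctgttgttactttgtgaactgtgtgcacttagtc
TGFBI: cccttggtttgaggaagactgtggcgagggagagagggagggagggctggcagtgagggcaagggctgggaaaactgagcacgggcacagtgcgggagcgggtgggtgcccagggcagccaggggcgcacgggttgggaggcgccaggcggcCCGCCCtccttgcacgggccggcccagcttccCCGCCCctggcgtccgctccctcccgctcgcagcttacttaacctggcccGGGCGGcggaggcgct
The *TGFBI* window is rich in G and C (72.8%) and holds 3 GC boxes, which start 98, 66 and 16 bases before the start site. The *TGFBR2* window has 40.8% G and C and none of the motifs searched, while the window of its other listed start has 58.4% G and C and 2 GC boxes. The motifs searched on both strands, none of which contains another, were the SMAD-binding core CAGAC, the SMAD palindrome GTCTAGAC, the AP-1 site TGACTCA and the GC box. CAGAC lay in 8 of the 19 member windows and in 38% of 35116 promoter windows of the same length, and GGGCGG lay in 9 of 19 and in 42.6%. GTCTAGAC and TGACTCA lay in 0 of 19 and in 0.182% and 4.2% of all windows. Of the inhibitor *SMAD7*, the first of 3 windows holds 2 copies of CAGAC, 217 and 128 bases before the start, and that of *TGFBI* holds none. These matches are a description of the letters and not of binding.

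Across the pathway, no difference between the labels shEN1 and shScr passed the test for a member. By the quasi-likelihood test of edgeR, adjusted by Benjamini-Hochberg over the 14333 genes tested, 0 of the 8 members tested and 0% of all genes (0 genes) reached an adjusted p under 0.05. At an unadjusted p below 0.05 there were 0 members, against 0.307% of all genes tested (44 genes), and the ranges of the 4 and 4 libraries overlapped for every member, while they did not overlap for 0.419% of all genes (60 genes). The log2 fold changes (shEN1 over shScr) of the 8 members lay between -0.19 and 0.07, with a median of 0.011, beside a median of -0.0028 over all genes tested. What varied was the level between libraries of the same label, over all 8 libraries most of all for *TGFBI* and *TGFBR2*. The labels do not say that replicates are separate cultures, so the p-values measure the spread between these libraries only. In bulk RNA, fewer cells that express a gene and less of its RNA per cell cannot be told apart.

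**Figure D1:**
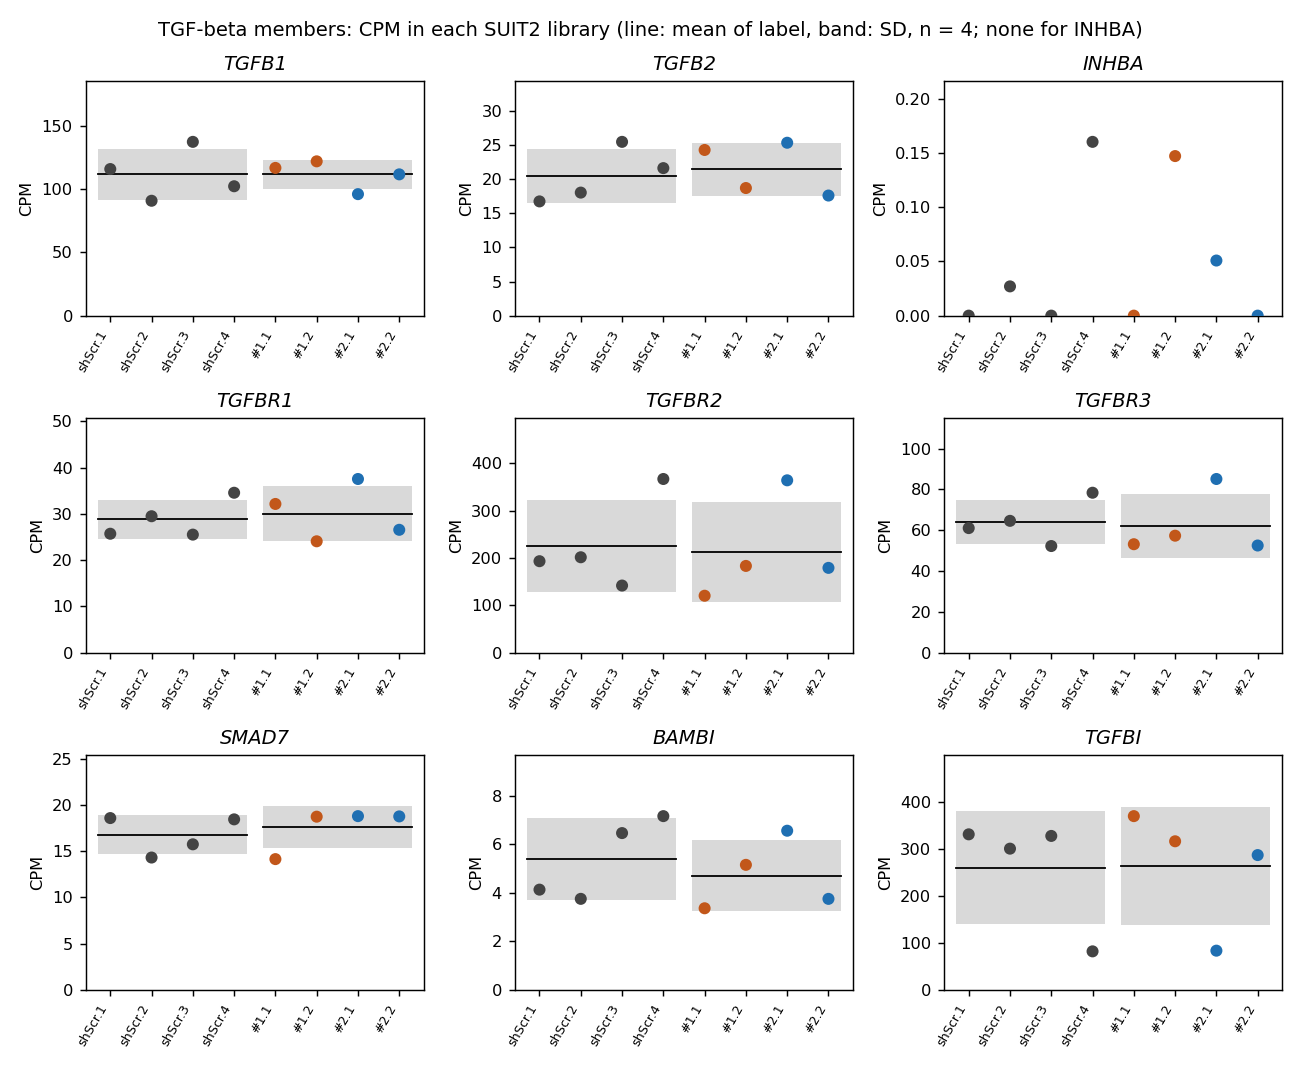
Level of each member in CPM (vertical axes, each from 0) in the 8 libraries (horizontal axes), with grey points for shScr, orange for shEN1 #1 and blue for shEN1 #2; black lines are means of the 4 libraries of a label and bands are ± SD. *TGFBI* is at 82.2 and 83.6 CPM in shScr replicate 4 and shEN1 #2 replicate 1 and at 287 to 370 CPM in the others, and *TGFBR2* is highest in the same 2 libraries, while *INHBA* stays under 0.2 CPM.

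Among the ligands, *TGFB1* had the highest level per kilobase of transcript. It encodes the main secreted TGF-beta ligand and lies on chromosome 19 (minus strand; 41807492 to 41859827 in GRCh37, the build used for all gene positions here). Its level was 116, 90.8, 137 and 102 CPM in shScr replicates 1 to 4, 117 and 122 CPM in shEN1 #1 and 96.1 and 112 CPM in shEN1 #2 (3368 to 4788 counts). The lowest and the highest library both carried the label shScr, and the range of shEN1 lay inside that of shScr. The means were 112 ± 20.02 CPM for shScr and 112 ± 11.2 CPM for shEN1 (SD, n = 4 each), and the log2 fold change was 0.00043 (standard error 0.14; edgeR, adjusted p = 1.00). Without the 2 libraries that stand apart the log2 fold change was 0.023 (standard error 0.15).

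*TGFB2*, a ligand that depends on the coreceptor TGFBR3 for strong binding to TGFBR2, was lower than *TGFB1* per kilobase in every library. It lies on the plus strand of chromosome 1, from 218518678 to 218617961, and had 16.8, 18.04, 25.5 and 21.6 CPM in shScr replicates 1 to 4, 24.3 and 18.7 CPM in shEN1 #1 and 25.4 and 17.6 CPM in shEN1 #2 (556 to 998 counts). High and low libraries occurred under each of the 3 labels, and the groups overlapped over most of their range. The means were 20.5 ± 3.92 and 21.5 ± 3.90 CPM (SD, n = 4 each), and the log2 fold change was 0.07 (standard error 0.18; edgeR, adjusted p = 1.00). Without the 2 libraries that stand apart the log2 fold change was 0.0043 (standard error 0.20). The strand setting of the counting is not given in the sources used here, and 35.3% of the exon bases of the canonical transcript of *TGFB2* are shared with the annotated genes *TGFB2-AS1*, on the opposite strand, and *TGFB2-OT1*, on the same strand. Neither of these genes is listed in the tables.

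*INHBA*, which encodes the subunit of activin A, was close to undetected. The gene lies on the minus strand of chromosome 7, from 41706766 to 41745432, and had 0, 1, 0 and 6 counts in shScr replicates 1 to 4, 0 and 5 counts in shEN1 #1 and 2 and 0 counts in shEN1 #2, 14 counts in all. In 4 libraries the count was 0, and a count of 0 allows up to 3 counts for counting error only. In these libraries that is 0.0818 to 0.0898 CPM at library size alone, without TMM scaling. The gene did not pass the filter on low counts and was not tested, and at this depth no difference between the labels was detectable.

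Both signaling receptors were expressed, and *TGFBR2* was the more abundant one per kilobase in every library. *TGFBR2* encodes the type II kinase that binds the ligand first and lies on the plus strand of chromosome 3, from 30648093 to 30735634. Its level was 193, 202, 142 and 367 CPM in shScr replicates 1 to 4, 120 and 183 CPM in shEN1 #1 and 364 and 179 CPM in shEN1 #2 (4298 to 14331 counts). The 2 libraries that stand apart were the 2 highest, the highest library held 3.05 times the level of the lowest, and the labels overlapped. The means were 226 ± 97.6 CPM for shScr and 212 ± 106 CPM for shEN1 (SD, n = 4 each), and the log2 fold change was -0.093 (standard error 0.37; edgeR, adjusted p = 1.00). Without the 2 libraries that stand apart the means were 179 ± 32.4 and 161 ± 35.2 CPM (SD, n = 3 each), and the log2 fold change -0.16 (standard error 0.18). The sign rested on single libraries, since the log2 fold change was 0.24 without shScr replicate 4, 0.10 without shEN1 #1 replicate 1 and -0.49 without shEN1 #2 replicate 1.

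*TGFBR1*, the type I kinase that passes the signal to the SMADs, varied less. It lies on the plus strand of chromosome 9, from 101866320 to 101916474, and had 25.7, 29.5, 25.5 and 34.6 CPM in shScr replicates 1 to 4, 32.1 and 24.1 CPM in shEN1 #1 and 37.5 and 26.6 CPM in shEN1 #2 (818 to 1477 counts). The same 2 libraries were again the highest, by a smaller margin, and the labels overlapped. The means were 28.8 ± 4.24 and 30.1 ± 6.004 CPM (SD, n = 4 each), and the log2 fold change was 0.062 (standard error 0.17; edgeR, adjusted p = 1.00), or 0.033 without the 2 libraries. Per kilobase of transcript, *TGFBR2* exceeded *TGFBR1* by 5.37 times in shEN1 #1 replicate 1 and by 15.2 times in shScr replicate 4, the lowest and highest of the 8 libraries.

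*TGFBR3* encodes betaglycan, a coreceptor without kinase activity that presents ligand to TGFBR2. It lies on the minus strand of chromosome 1, from 92145900 to 92371892, and had 61.1, 64.6, 52.3 and 78.4 CPM in shScr replicates 1 to 4, 53.2 and 57.4 CPM in shEN1 #1 and 85.1 and 52.5 CPM in shEN1 #2 (1710 to 3351 counts). It too was highest in the 2 libraries that stand apart, one under each label. The means were 64.1 ± 10.9 and 62.0 ± 15.5 CPM (SD, n = 4 each), and the log2 fold change was -0.047 (standard error 0.18; edgeR, adjusted p = 1.00), and -0.13 without these libraries.

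Both inhibitors were detected in every library. *SMAD7*, which blocks SMAD phosphorylation and recruits the ubiquitin ligases SMURF1 and SMURF2 to the receptor, lies on the minus strand of chromosome 18, from 46446223 to 46477335. It had 18.6, 14.3, 15.8 and 18.5 CPM in shScr replicates 1 to 4, 14.2 and 18.7 CPM in shEN1 #1 and 18.8 and 18.8 CPM in shEN1 #2 (505 to 740 counts). Of the 8 tested members it was the most even, with 1.33 times between the highest and lowest of the 8 libraries, and 3 of the 4 libraries labelled shEN1 were nearly equal while the fourth was below every library labelled shScr. The means were 16.8 ± 2.095 and 17.6 ± 2.31 CPM (SD, n = 4 each), and the log2 fold change was 0.07 (standard error 0.16; edgeR, adjusted p = 1.00). Without the 2 libraries that stand apart the log2 fold change was 0.083 (standard error 0.18).

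*BAMBI* encodes a receptor-like protein that lacks the kinase and sequesters the receptors. It lies on the plus strand of chromosome 10, from 28966439 to 28971861, and had 4.13, 3.75, 6.46 and 7.16 CPM in shScr replicates 1 to 4, 3.36 and 5.15 CPM in shEN1 #1 and 6.55 and 3.75 CPM in shEN1 #2 (120 to 268 counts). The 2 libraries that stand apart were the 2 highest, closely followed by shScr replicate 3. The means were 5.37 ± 1.69 and 4.70 ± 1.45 CPM (SD, n = 4 each), and the log2 fold change was -0.19 (standard error 0.30; edgeR, adjusted p = 1.00), or -0.23 without them.

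The target *TGFBI* showed the widest spread of all members over the 8 libraries. It encodes a secreted extracellular matrix protein, named for its induction by TGF-beta, that binds collagen and integrins, and it lies on the plus strand of chromosome 5, from 135364677 to 135399507. Its level was 332, 301, 328 and 82.2 CPM in shScr replicates 1 to 4, 370 and 317 CPM in shEN1 #1 and 83.6 and 287 CPM in shEN1 #2 (3077 to 13221 counts). One library under shScr and one under shEN1 #2, the same that stand apart, were the 2 lowest, and the other 6 lay between 287 and 370 CPM. The means were 261 ± 120 CPM for shScr and 265 ± 125 CPM for shEN1 (SD, n = 4 each), and the log2 fold change was 0.021 (standard error 0.50; edgeR, adjusted p = 1.00). Without the 2 libraries the means were 320.2 ± 16.7 and 325 ± 42.1 CPM (SD, n = 3 each), the log2 fold change was 0.017 and its standard error fell from 0.50 to 0.13. Leaving out shScr replicate 4 alone gave -0.28 and leaving out shEN1 #2 replicate 1 alone gave 0.32.

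**Figure D2:**
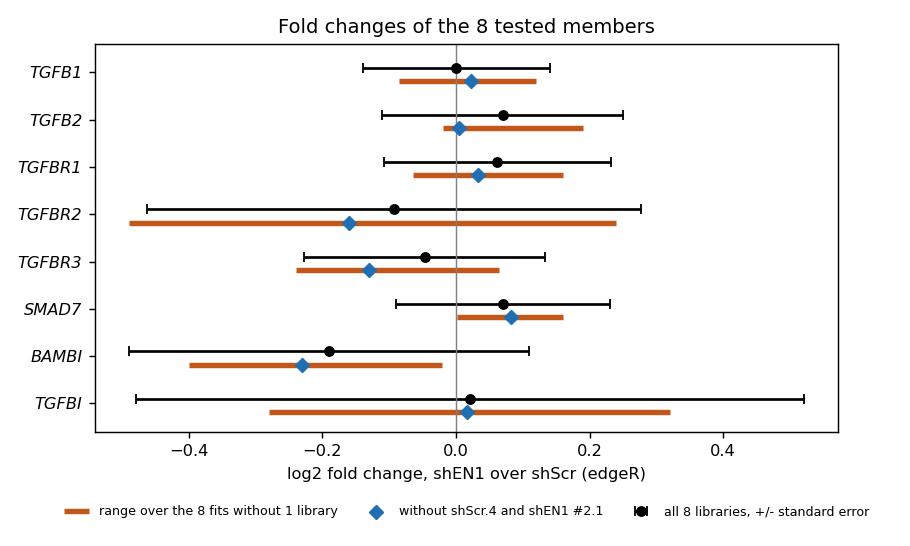
Log2 fold change of the 8 tested members (horizontal axis, shEN1 over shScr; genes on the vertical axis): black points with bars are the fit to all 8 libraries ± standard error, orange bars the range over the 8 fits that leave out 1 library, and blue diamonds the fit without shScr replicate 4 and shEN1 #2 replicate 1. All points lie between -0.23 and 0.083, and the orange bars of *TGFBR2* (-0.49 to 0.24) and *TGFBI* (-0.28 to 0.32) are the longest.

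Each construct was also compared with shScr on its own, in a fit that shares 1 estimate of the spread over all 8 libraries. Of the 8 members tested, 0 had an adjusted p below 0.05 for shEN1 #1 against shScr, for shEN1 #2 against shScr or for shEN1 #2 against shEN1 #1 (edgeR, adjusted p = 1.00 for each member), and all genes gave 0% in each case. At an unadjusted p below 0.05 there were 0 members in each comparison, against 0.656%, 0.3% and 1.07% of all genes (94, 43 and 153 genes). The smallest unadjusted p of a member was that of *TGFBR2*, 0.207 for construct 1 against shScr and 0.113 between the constructs (edgeR), and for construct 2 against shScr it was that of *SMAD7*, 0.428.

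The variation within labels was set beside that of all genes. The SD of log2 CPM was taken over libraries of the same label, with both constructs pooled as shEN1, so it includes any difference between them. It was 0.98 for *TGFBI*, larger than that of 94.1% of all genes tested, 0.62 for *TGFBR2* (83.6%) and 0.45 for *BAMBI* (72.5%). The receptors *TGFBR3* (0.29) and *TGFBR1* (0.25) and the ligand *TGFB2* (0.27) were near the median of all genes, 0.28. The most even members were *TGFB1* (0.21, larger than 32.6% of genes) and *SMAD7* (0.19, larger than 27.8%). This order rested on the 2 libraries that stand apart. Without them the SD was 0.14 for *TGFBI* (larger than 19.7% of genes), 0.31 for *TGFBR2* (66.1%), 0.37 for *BAMBI* (73.4%) and 0.21 for *SMAD7* (43.9%), beside a median of 0.23 over all genes. The target was then more even than *SMAD7*, *BAMBI* had the largest SD of the members, and *TGFBR3* (0.12) the smallest. The SD of the remaining tested members was 0.29 for *TGFB2*, 0.22 for *TGFB1* and 0.17 for *TGFBR1*.

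*TGFBR2* was highest and *TGFBI* lowest in the 2 libraries that stand apart. The ratio of *TGFBR2* counts to *TGFBI* counts was 0.583, 0.67, 0.432 and 4.46 in shScr replicates 1 to 4, 0.325 and 0.579 in shEN1 #1 and 4.35 and 0.624 in shEN1 #2. This ratio is taken within a library and does not depend on the scaling between libraries. The receptor had more counts than the target only in the 2 libraries that stand apart, and in the other 6 the order was the opposite. Over all genes tested these libraries were the 2 highest for 18.9% and the 2 lowest for 19.2%, so such a contrast is not particular to this pair of genes. No correlation is given, because the libraries fall into separate clusters.

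**Figure D3:**
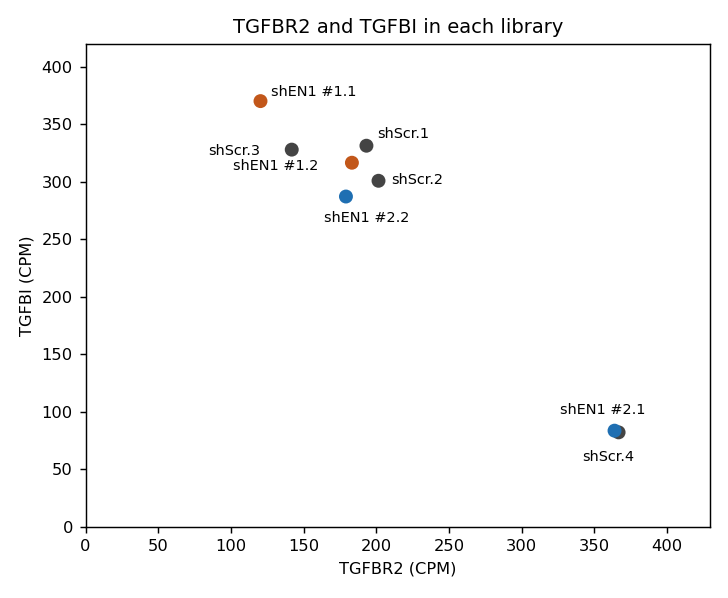
Level of *TGFBI* (vertical axis, CPM) against that of *TGFBR2* (horizontal axis, CPM), 1 point for each of the 8 libraries, grey for shScr, orange for shEN1 #1 and blue for shEN1 #2. The points of shScr replicate 4 and shEN1 #2 replicate 1 nearly coincide at 367 and 364 CPM of *TGFBR2* and 82.2 and 83.6 CPM of *TGFBI*, away from the other 6.

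The 2 libraries that stand apart were the 2 highest of the 8 for *TGFBR1*, *TGFBR2*, *TGFBR3* and *BAMBI* and the 2 lowest for *TGFBI*, 5 of the 8 members tested. Over all genes tested they were the 2 highest for 18.9% and the 2 lowest for 19.2%, 38.1% in all. With library size alone as the scaling *SMAD7* was also highest in both, 6 of 8 members against 40.2% of all genes. Of these members 5 were highest and 1 lowest, while of all 14333 genes tested 3924 were highest and 1843 lowest. *EN1* was lowest in the same 2 libraries. Of the epithelial markers, *EPCAM*, *KRT7*, *KRT19* and *CDH1* were also lowest in both (4 of 6), for example *KRT7* at 198 and 192 CPM beside 534 to 1080 CPM in the others, while *KRT8* and *KRT18* were not. *CD68*, a lysosomal protein and the one immune marker above the filter, was at 8.38 and 7.75 CPM in them and at 16.7 to 34.6 CPM in the others. The part of these marker differences in the levels of the members was not tested.

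Levels of different genes were compared per kilobase of the canonical transcript. *TGFBI* was highest with a mean of 96.8 CPM per kilobase over the 8 libraries (SD 41.9), followed by *TGFBR2* (48.3, SD 20.8) and *TGFB1* (40.2, SD 5.40). The ranges of neighbours in this order overlapped among these genes, and *TGFBI* was below *TGFBR2* in the 2 libraries that stand apart. *TGFBR3* came next at 9.95 CPM per kilobase (SD 1.96), and its range touched neither that of *TGFB1* above nor that of *SMAD7* below. *SMAD7* (5.15), *TGFBR1* (4.53) and *TGFB2* (3.58) each overlapped with the next in order, *BAMBI* (2.98) lay above *INHBA* without overlap, and *INHBA* was last at 0.00796 CPM per kilobase. Without the 2 libraries that stand apart, *TGFBI* (119) no longer overlapped with the next gene, *TGFB1* (41.6) came before *TGFBR2* (37.5), and the other members kept their places.

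**Figure D4:**
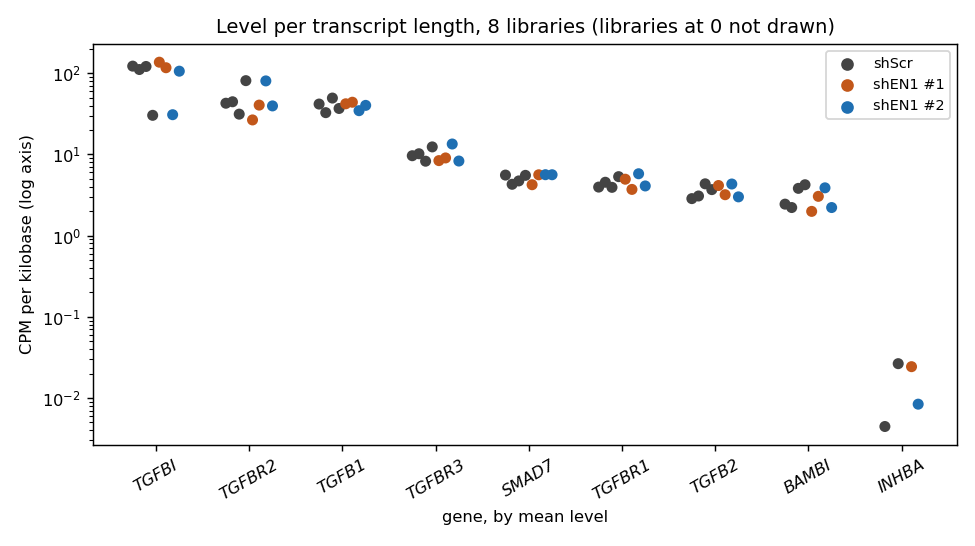
Level of each member in CPM per kilobase of transcript (vertical axis, log scale) for the 8 libraries, genes ordered by mean on the horizontal axis, grey for shScr, orange for shEN1 #1 and blue for shEN1 #2; libraries at 0 counts are not drawn. *TGFBI*, *TGFBR2* and *TGFB1* lie between 26.6 and 137 CPM per kilobase, and *INHBA* is at or below 0.0265.

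A list of 60 other genes of the pathway was described in the same way, and 47 of them passed the filter. None had an adjusted p below 0.05 (0 of 47, edgeR, beside 0% of all genes), none had an unadjusted p below 0.05 (0 of 47, beside 0.307%), and in none were the labels separated (0 of 47, beside 0.419%). Their log2 fold changes were above 0 for 23 and below 0 for 24, from -0.63 to 0.55, with a median of -0.0023. The genes named here are those with the highest mean per kilobase in each role. The 2 libraries that stand apart were the 2 highest for 12 and the 2 lowest for 12 of the 47 genes, beside 18.9% and 19.2% of all genes. With library size alone as the scaling they were the 2 highest for 12 and the 2 lowest for 8 of the 47. Over all 14333 genes tested they were then the 2 highest for 3924 and the 2 lowest for 1843.

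Of the 7 other ligands, 3 passed the filter. *GDF11*, an activin-like ligand, was at 38.2 ± 16.1 CPM in shScr and 38.4 ± 14.1 CPM in shEN1 (SD, n = 4 each), and *TGFB3*, the remaining TGF-beta isoform, at 1.93 ± 0.269 and 1.84 ± 0.409 CPM. Of the 11 genes of latency and activation, 10 passed. *THBS1*, thrombospondin 1, which can release TGF-beta from its latent complex, was at 484 ± 183 and 535 ± 207 CPM, and *LTBP3*, which anchors latent TGF-beta to the matrix, at 201 ± 55.2 and 192 ± 70.9 CPM. *THBS1* was highest in the 2 libraries that stand apart, at 683 and 789 CPM beside 274 to 581 CPM in the others.

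Of the 7 other receptors and coreceptors, 6 passed. The type I receptors *ACVR1* and *ACVR1B* had 25.4 ± 1.89 and 28.1 ± 3.04 CPM in shScr and 27.8 ± 3.51 and 27.97 ± 2.25 CPM in shEN1 (SD, n = 4 each). Of the 7 SMADs and partners, 5 passed. *SMAD3*, the receptor-activated SMAD, was at 363 ± 59.0 and 363 ± 62.9 CPM, and *TGIF1*, a corepressor of SMADs, at 45.1 ± 7.31 and 47.7 ± 12.3 CPM. Both were highest in the 2 libraries that stand apart, *SMAD3* at 444 and 427 CPM beside 285 to 398 CPM. *SMAD4*, the shared partner of the receptor-activated SMADs, had 0 to 13 counts in a library and 56 counts in all, and was named after its value was seen.

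Of the 10 other inhibitors, 7 passed. *PMEPA1*, a TGF-beta-induced membrane protein that binds receptor-activated SMADs, had the highest level per kilobase of these and was at 910 ± 96.0 CPM in shScr and 896 ± 95.1 CPM in shEN1 (SD, n = 4 each), and *SMURF1* was at 91.4 ± 8.74 and 93.9 ± 5.42 CPM. Of the 18 other targets, 16 passed. Among the roles of the other pathway genes, these varied most within a label. Their median SD was 0.66 in log2 CPM, beside 0.28 over all genes tested. Some of them had low counts, such as *SNAI1* with 8 to 44 in a library, named after its value was seen. The part of counting error in this SD was not determined. *ID1*, a helix-loop-helix inhibitor of differentiation, was at 68.5 ± 30.5 and 71.7 ± 36.7 CPM and was lowest in the 2 libraries that stand apart, at 34.9 and 31.9 CPM beside 53.4 to 115 CPM. Its relative *ID2* was at 41.8 ± 8.56 and 43.4 ± 5.61 CPM. *LEFTY1*, *LEFTY2* and *CDKN2B*, named after their values were seen, had 0 counts in every library.

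**Figure D5:**
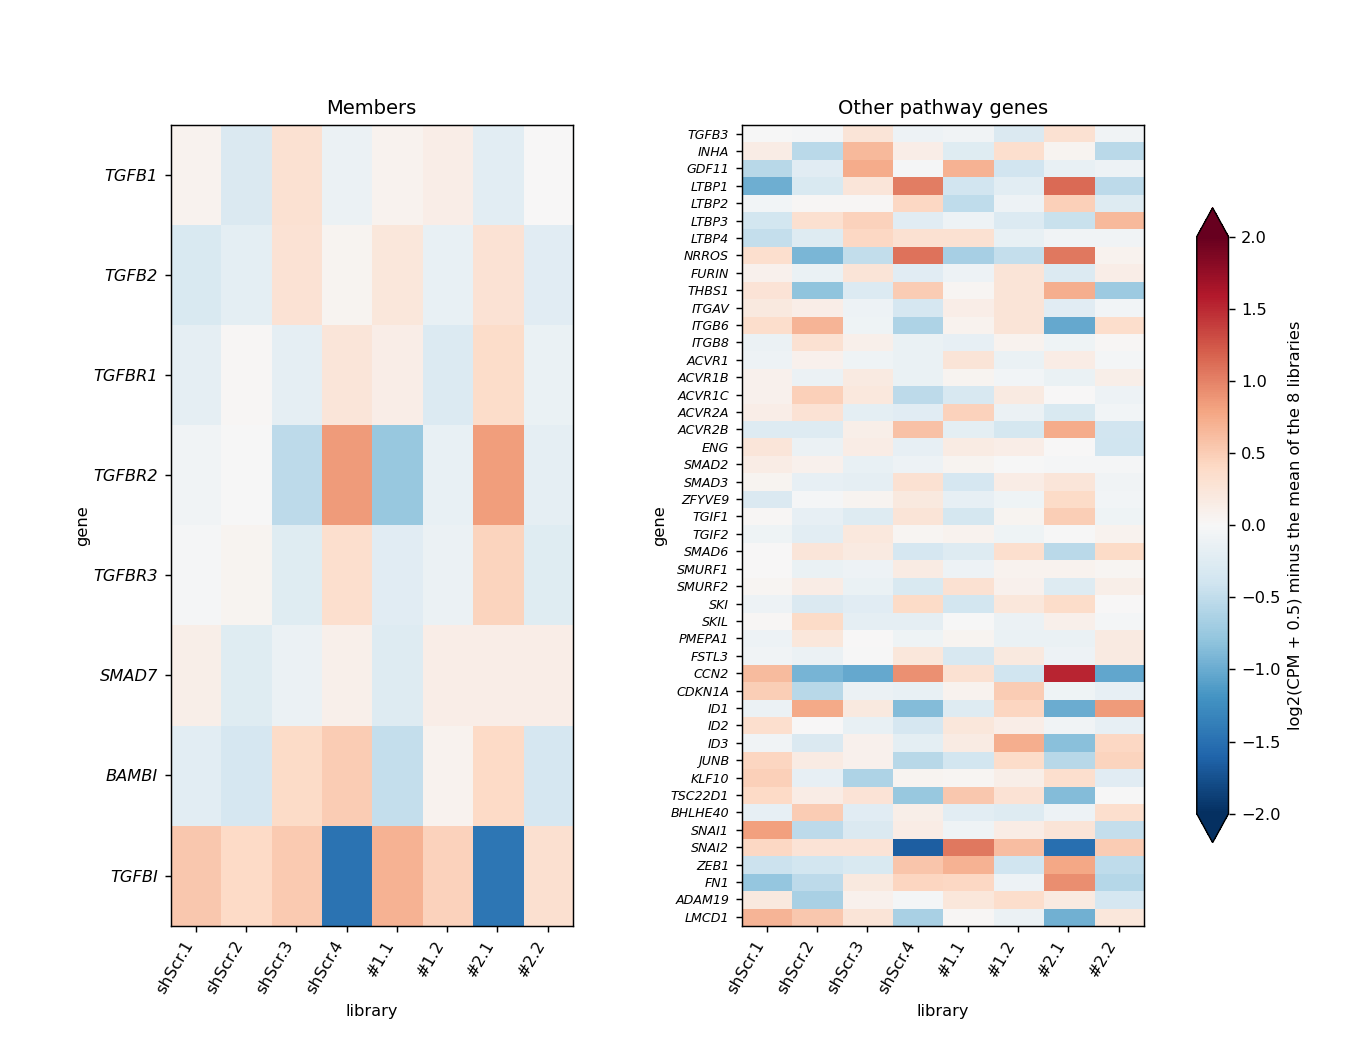
Colour gives log2(CPM + 0.5) of a gene minus its mean over the 8 libraries, for the 8 tested members (left) and the other pathway genes that passed the filter, apart from 1 that is not drawn (right); genes are rows and libraries columns. The columns of shScr replicate 4 and shEN1 #2 replicate 1 look alike, with *TGFBR2* above and *TGFBI* below the mean in both.

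For the members with the largest SD over the 8 libraries, the genes with the most similar profile were sought by the root mean square difference of centred log2 CPM over the 8 libraries. Closest to *TGFBI* were *ST3GAL1* (0.11) and *TGM2* (0.14), which encode a sialyltransferase and tissue transglutaminase. *TGM2* had 1552, 1392, 1399 and 433 CPM in shScr replicates 1 to 4, 1616 and 1638 CPM in shEN1 #1 and 475 and 1495 CPM in shEN1 #2. Like *TGFBI*, it was lowest in the 2 libraries that stand apart. Closest to *TGFBR2* were *MTFR1L* (0.045) and *NEDD4L* (0.11), the latter a ubiquitin ligase that was at 163 and 174 CPM in the 2 libraries and at 68.6 to 96.6 CPM in the others. Closest to *BAMBI* were *ZC3H10* (0.11) and *ZNF219* (0.13), which encode zinc finger proteins.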

How the data were processed

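RNA-seq of 8 SUIT2 libraries was analysed, grouped by their labels. For each gene the authors deposited a whole-number count of reads, obtained from paired-end reads by HISAT2 and featureCounts (submitters' processing notes and the study's methods), without normalization. The study's methods give hg19 for human samples, while the processing notes list mm9, and the identifiers are human NCBI gene numbers. Versions, annotation and strand setting are not given in the sources used here. Symbols were matched for 23696 of 25702 genes through a RefSeq table, and positions come from GENCODE v44 lifted to GRCh37.

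Genes were filtered with filterByExpr (minimum count 10; 14333 kept), scaled by TMM (factors 0.962 to 1.07) and tested with edgeR 4.0.16 (glmQLFit, robust; glmQLFTest) in R 4.3.3, adjusted over all genes tested. DESeq2 1.42.0, limma-voom (limma 3.58.1), other scalings, filters and designs, the replicate block and leaving out each library were alternatives. Deviations of log2 CPM from the mean of a library's own label (shScr, shEN1 #1 or shEN1 #2) correlated from -0.33 to 0.44 between same-numbered libraries. Such libraries were not treated as pairs. The members and lists were chosen with earlier results of these data known. The genes named were all members, *EN1*, the 2 highest per kilobase in each role and any with an unadjusted p below 0.05 (none), and the 2 most similar profiles of the 3 most variable members, with the exceptions marked in the text and the cell type markers. One gene of the pathway list, counted in its totals, is not reported here.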

Additional observations from a re-analysis of the deposited data

Results flagged for a closer look

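Among 18 groups of 4 libraries (9 members under each label), 4 held a library far from the other 3. Its gap to the nearest neighbour, relative to the range of the group, was above Dixon's critical value. Chance gives about 0.9 such groups if the groups are independent and the values normal. The 18 groups share the same libraries, and the counts of *INHBA* are near 0. The share over all genes was not determined, so the 4 groups are not a result about the members. Over all genes tested, shScr replicate 4 and shEN1 #2 replicate 1 were the 2 highest or the 2 lowest for 38.1%. *TGFBI* in shScr replicate 4 was at 82.2 CPM, with the nearest library of that label at 301 CPM. *TGFBR3* in shEN1 #2 replicate 1 was at 85.1 CPM, with the nearest of the libraries labelled shEN1 at 57.4 CPM. *SMAD7* in shEN1 #1 replicate 1 was at 14.2 CPM, with the nearest at 18.7 CPM. *INHBA* in shScr replicate 4 was at 0.160 CPM (6 counts), with the nearest at 0.0270 CPM (1 count). Those of *TGFBI*, *TGFBR3* and *INHBA* are in the 2 libraries that stand apart, and that of *SMAD7* is not.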

How the results depend on the processing

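No member had an adjusted p below 0.05 in any of the 19 fits of shEN1 against shScr or the 18 fits of each other comparison (edgeR, DESeq2 and limma-voom), and the lowest adjusted p of a member in any fit was 0.728, between the constructs. The count of DEGs between shEN1 and shScr, 0 in edgeR, was 2 with DESeq2, 1 with the replicate block, 1 without the 2 libraries that stand apart (chosen after seeing the data), 44 at an unadjusted p, and 0 to 1 when 1 library was left out (1 without shScr replicate 4). For shEN1 #1 against shScr it was 3 with DESeq2, 1 with no filter, 1 with only the libraries compared, 94 at an unadjusted p, and 0 to 1 when 1 library was left out (1 without shEN1 #1 replicate 2 and without shEN1 #2 replicate 1). At an unadjusted p it was 43 for shEN1 #2 against shScr and 153 between the constructs. The genes called, named after their values were seen, were *VAMP7*, *EIF3CL* and the gene numbered 100507676, for which no symbol was found. Leaving out a library of a construct leaves 1, which is assumed to vary like the others.

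The sign of small log2 fold changes was unstable, and the cause was not tested. *TGFB1* was -0.002 with upper-quartile scaling, -0.0055 at library size only, -0.0013 with at least 10 counts in every library and -0.0031 with 3 groups. *TGFBI* was -0.047 with 3 groups. With the replicate block, *TGFBR2* was 0.08, *BAMBI* 0.26 and *TGFBI* -0.28. Replicate numbers 3 and 4 occur only under shScr, so in that fit shScr replicates 3 and 4 carry no weight in the fold change. It therefore leaves out shScr replicate 4 but keeps shEN1 #2 replicate 1. When 1 library was left out, *TGFB1* ran from -0.086 to 0.12, *TGFB2* from -0.019 to 0.19, *TGFBR1* from -0.064 to 0.16, *TGFBR2* from -0.49 to 0.24, *TGFBR3* from -0.24 to 0.065 and *TGFBI* from -0.28 to 0.32. *SMAD7* kept its sign in the 18 alternatives run for it but ran from 0.0016 (without shScr replicate 2) to 0.16 (without shEN1 #1 replicate 1), and *BAMBI* ran from -0.4 (without shEN1 #2 replicate 1) to -0.021 (without shScr replicate 4). *INHBA* was not tested.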

Other observations

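Some pathway genes outside the naming rule were singled out after their values were seen. *SNAI2*, a repressor of epithelial genes, was at 7.62, 6.85, 6.80 and 1.44 CPM in shScr replicates 1 to 4, 12.2 and 8.86 CPM in shEN1 #1 and 1.63 and 8.11 CPM in shEN1 #2, lowest in the same 2 libraries as *TGFBI*. *ZEB1*, another of the targets, was at 20.2 and 23.6 CPM in these 2 libraries and 9.40 to 22.3 CPM in the others. The 22.3 CPM was in shEN1 #1 replicate 1, above shScr replicate 4, so the 2 libraries that stand apart were not its 2 highest. Of the 16 other targets that passed the filter, these libraries were the 2 lowest for 5 and the 2 highest for 2. Over all genes tested the shares were 19.2% and 18.9%. *LTBP1*, which binds latent TGF-beta, was highest in these libraries, at 9.59 and 10.4 CPM beside 2.02 to 5.37 CPM in the others. *CCN2*, a matricellular target of the pathway, was at 73.0 and 112 CPM in them and at 18.5 to 59.6 CPM in the others. None of these genes had an adjusted p below 0.05 between the labels (edgeR).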
